A study of Mus musculus with 2 samples.

Results

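Arg1, Nos2, Chil3, Mrc1 and Il4ra were described here as genes of arginine use and of alternative macrophage activation. They were chosen by name, and all 5 were present among the 13774 genes of the count table. Single-cell RNA sequencing (10x 3′ chemistry) had been run on live ZSGreen+ cells sorted from normal mammary glands (NEC) and from EO771 tumors (TEC), with 1 library per group. EO771 is a mouse mammary tumor line syngeneic to C57BL6/J, and 1000000 of its cells were placed in the mammary fat pad of 8-week-old females about 3 weeks before collection. All mice of both groups are given the same genotype, Cdh5Cre-ERT2:ZSGreenl/s/l, and received tamoxifen, which acts through a Cre driven by the endothelial Cdh5 promoter to switch on ZSGreen. The labels do not say how many animals each library pooled, nor whether the normal glands came from tumor-bearing mice.

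Macrophages can spend arginine in competing ways. Arginase 1, the product of Arg1, splits it into ornithine and urea and so feeds proline and polyamine synthesis, whereas the inducible nitric oxide synthase made from Nos2 turns it into citrulline and nitric oxide. IL-4 and IL-13 act through a receptor chain encoded by Il4ra and through STAT6, and in mouse macrophages they raise Arg1, Chil3 (the chitinase-like protein Ym1) and Mrc1 (the mannose receptor CD206). Arg1 is also known to respond to hypoxia and lactate in tumor macrophages, Chil3 is made by some monocytes and neutrophils, and Nos2 is a classical target of interferon-gamma and bacterial products.

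The labels call the sorted cells endothelial, but endothelial genes were near 0: 7 listed markers summed to 31.2 CPM (UMIs of a gene per 1000000 UMIs) over all NEC cells kept and to 51.8 CPM over those of TEC, with Cdh5, Kdr and Emcn listed at 0 in NEC and Tek and Cldn5 in TEC. This holds for the cells of the count table, which may not be all the cells sequenced. A library below means its cells in that table. Most values below come from clusters that carry leukocyte markers. After filtering, 1794 NEC cells with a median of 2259 UMIs and 997 TEC cells with a median of 8594 UMIs remained, and the shallowest TEC cell in the table held 6376 UMIs. The table keeps almost no gene seen in fewer than 5 cells of a library, so a gene listed at 0 for a whole library has no upper limit here, and no fold is given against it. Cells of the macrophage or monocyte-like clusters were split at 1000 CPM of C1qa, C1qb and C1qc summed, the complement genes of mature tissue macrophages. This gave 94 C1q-high and 203 C1q-low cells in NEC and 113 and 432 in TEC, beside 39 and 138 dendritic-like cells. Few NEC cells lay between 500 and 2000 CPM of C1q, 4 in each gate. In TEC 21 of 113 C1q-high and 16 of 432 C1q-low cells did, so the TEC C1q-high gate was less clearly set apart. The libraries filled these gates from different clusters. NEC C1q-high cells came mostly from cluster 8 (68 cells; Retnla, Folr2) and NEC C1q-low cells from clusters 3 (99 cells; Lyz1, Ear2) and 7 (94 cells; Gsr, Hp, Plac8), while TEC cells of both gates came mostly from cluster 6 (98 and 299 cells; Cxcl3, Mmp12, Spp1). Cluster and library therefore cannot be told apart for most of each comparison. With 1 library a group there is no test, and every interval is a 95% interval that covers counting error only. A gene with at least 50 UMIs over a pair of groups is called higher or lower where the ratio of its CPM reaches 2-fold.

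In GENCODE M21 on GRCm38, Arg1 (ENSMUSG00000019987.9) lies at chr10:24915221-24927484 on the minus strand and Nos2 (ENSMUSG00000020826.8) at chr11:78920787-78960254 on the plus strand. Chil3 (ENSMUSG00000040809.10) lies at chr3:106147554-106167564 on the minus strand, Mrc1 (ENSMUSG00000026712.3) at chr2:14229392-14332057 and Il4ra (ENSMUSG00000030748.9) at chr7:125552120-125579474, both on the plus strand. The promoters of Chil3 and Mrc1 are shown because these genes followed the C1q level in opposite directions. Each sequence is from the RefSeq promoter table on GRCm38.p6, 5′ to 3′ on the gene's own strand, with 250 bases before and 10 after the start site (chr3:106167555-106167814, minus strand, and chr2:14229164-14229423, plus strand). Capitals mark matches to the motifs searched.
Chil3: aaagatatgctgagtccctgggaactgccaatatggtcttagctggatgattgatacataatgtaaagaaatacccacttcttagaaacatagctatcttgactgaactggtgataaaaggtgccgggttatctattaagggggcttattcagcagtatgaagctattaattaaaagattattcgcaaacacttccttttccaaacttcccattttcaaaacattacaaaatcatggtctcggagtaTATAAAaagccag
Mrc1: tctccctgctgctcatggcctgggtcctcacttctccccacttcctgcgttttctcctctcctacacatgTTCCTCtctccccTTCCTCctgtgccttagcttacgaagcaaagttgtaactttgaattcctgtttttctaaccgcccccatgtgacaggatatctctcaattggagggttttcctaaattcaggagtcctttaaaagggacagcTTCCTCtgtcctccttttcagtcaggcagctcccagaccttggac
The motifs were searched on both strands: the STAT6 palindrome with a spacer of 4 bases, ACGTG (core of the hypoxia response element), TTGCNNAA (C/EBP), TGANTCA (AP-1), GAGGAA (purine-rich core read by PU.1 and other ETS factors) and TATAAA (the promoter box bound by TBP). The Chil3 window held TATAAA at position -3 from the start site, and 36.5% of its bases were G or C. This match of letters runs across the annotated start site, and its use as a promoter box was not tested. The Mrc1 window held GAGGAA at -180, -167 and -35, each on the opposite strand and therefore printed as TTCCTC, with 50% G or C. Among 32851 RefSeq promoters of the same length, 12.7% held TATAAA and 24.1% held GAGGAA, so neither match is rare. The STAT6 palindrome was found in 6.09%, the hypoxia core in 17.3%, the C/EBP motif in 9.85% and the AP-1 motif in 7.03% of them. None of the 6 motifs matched the Il4ra window (chr7:125552021-125552280), which says only that these letters are not in those bases.

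Arg1 was scarce in macrophages of the normal gland and present in a minority of tumor macrophages. It stood at 26.9 CPM (11.6 to 53.1; 8 UMIs) in NEC C1q-high cells and at 59.9 CPM (44.6 to 78.7; 51 UMIs) in NEC C1q-low cells. In TEC it stood at 98.3 CPM (79.9 to 119.6; 99 UMIs) in C1q-high and at 216.5 CPM (201.5 to 232.3; 773 UMIs) in C1q-low cells. Both TEC groups thus lay above the NEC group of the same gate, and the intervals did not overlap. The ratio of TEC over NEC was 3.65 (1.78 to 8.68) at high and 3.62 (2.72 to 4.90) at low C1q, log2 values of 1.87 and 1.85. The median over all genes was itself above 0 in these comparisons, at 0.50 and 0.36, and relative to it Arg1 stood 1.37 and 1.5 above it. As a level of background, Arg1 stood at 5.0 CPM (4 UMIs in 1 cell) in NEC cluster 2 and at 0 UMIs (up to 3.96 CPM) in NEC cluster 5, both T or NK-like, and at 1.95 CPM in the T, NK or innate lymphoid-like cells of TEC, where 2.22% of cells held a UMI at a median depth of 9841 UMIs. Other NEC cells held more, with 38.1 CPM in epithelial-like cluster 1 and 58.4 CPM in type 2 innate lymphoid-like cluster 9. The NEC C1q-high level thus did not stand above that of all other NEC cells. It also differed by cluster. Cluster 8, with 68 of the 94 cells of that gate, held 4.52 CPM. Of the 8 UMIs, 3 lay in 1 cell of cluster 4, which gave 19 cells to the gate. The C1q-high ratio of TEC over NEC thus pools NEC clusters of unlike Arg1 level. The median depth of the C1q-high and C1q-low cells was 2697 and 3432 UMIs in NEC and 7576 and 7472.5 UMIs in TEC.

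A few cells carried most Arg1. Of 545 TEC macrophage-group cells, 70 held an Arg1 UMI (12.8%), and 33 of 545 (6.06%) did so with every cell thinned to 1000 UMIs. The corresponding NEC counts were 13 of 297 cells (4.38%) and, thinned, 7 (2.36%). The 5 richest TEC cells held 129, 119, 77, 51 and 39 UMIs, together 47.6% of the 872 Arg1 UMIs, and all 5 were C1q-low cells of cluster 6. The share of cells with an Arg1 UMI hardly separated the gates, at 13.3% (15 of 113) of C1q-high and 12.7% (55 of 432) of C1q-low cells. The level did: Arg1 was 2.20-fold lower in TEC C1q-high than in C1q-low cells (1.79 to 2.74). The size of that gap depended on a few cells of each gate. Cells with 5 or more Arg1 UMIs numbered 3 of 113 at high and 30 of 432 at low C1q. The ratio of high over low, 0.454, was 0.543 without the richest cell and 0.966 without the 5 richest cells, all of them C1q-low, but 0.343 and 0.103 without the richest cell or the 5 richest cells of each gate. With the C1q limit at 500 or 2000 CPM it was 0.648 or 0.548, within 2-fold. By cluster, C1q-low cells held 306.7 CPM in cluster 6, 7.24 CPM in cluster 7 (3 of 53 cells) and 0 UMIs in cluster 16, which is led by the interferon response genes Rsad2 and Isg15. Arg1 is itself among the leading genes of cluster 6, although the 5 genes were left out of the clustering.

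**Figure D1:**
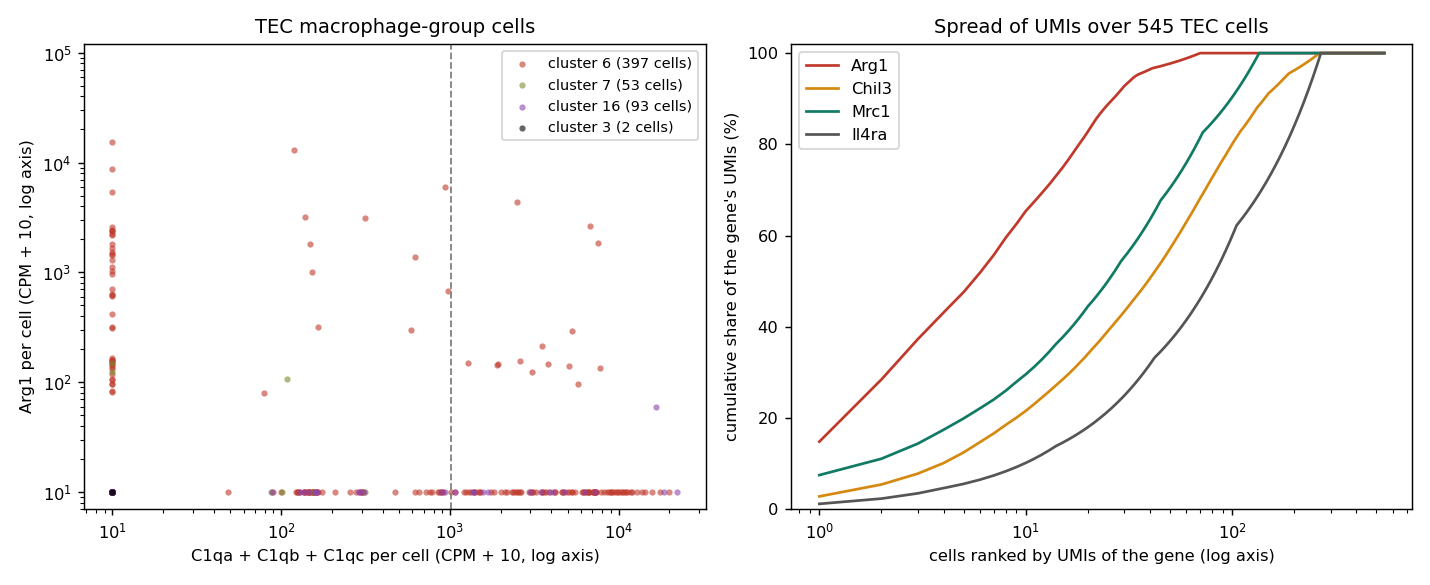
Left, Arg1 against summed C1q in each of the 545 TEC macrophage-group cells (CPM + 10, log axes; dashed line, C1q limit; color, cluster). Right, share of a gene's UMIs (%) held by the cells richest in it (log axis): the 5 richest cells hold 47.6% for Arg1 and 12.4% for Chil3.

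In NEC, 7 cells decided the Arg1 level. They were the only NEC cells grouped with the tumor cells of cluster 6, all were C1q-low, and they held 45 of the 88 Arg1 UMIs of the library (51.1%; 10, 0, 12, 11, 8, 2 and 2 UMIs). Their pooled level was 1190 CPM (868 to 1592), above that of the TEC cells of the cluster. None had a UMI of Mrc1, C1qa or Cd3e, and no cell barcode among them occurred in TEC. Without them the other 196 NEC C1q-low cells held 6 Arg1 UMIs, all in 1 cell of cluster 7, or 7.37 CPM. The C1q-low ratio of TEC over NEC was then 29.4, and the NEC ratio of C1q-high over C1q-low turned from 0.450 to 3.66. The 99 C1q-low cells of NEC cluster 3 held 0 Arg1 UMIs among 473222. Outside the myeloid clusters, 17 Arg1 UMIs fell in NEC cluster 9, the type 2 innate lymphoid-like cells, a cell type known to express arginase 1, and 13 of these lay in 1 cell (58.4 CPM, 34.0 to 93.5).

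**Figure D2:**
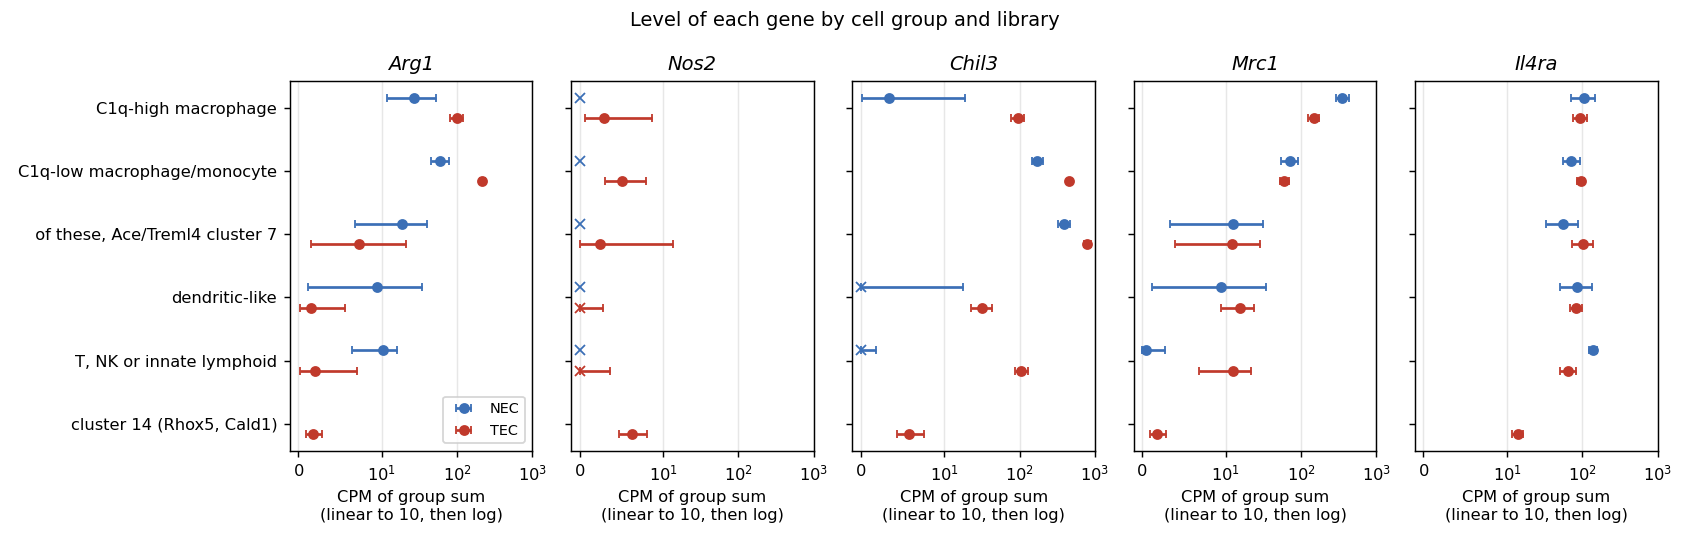
Level of each gene (CPM of the summed UMIs; axis linear to 10, then log) by cell group in NEC (blue) and TEC (red), with 95% counting intervals; a cross marks 0 UMIs. Arg1 and Chil3 lie higher in TEC in both C1q gates, though not in all other groups. Mrc1 follows the C1q-high cells of both libraries, Il4ra is present in every leukocyte group, and Nos2 is low in every group.

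Nos2 was near the detection limit. It was listed at 0 in the whole NEC library and had 79 UMIs in TEC, of which 21 lay in 12 of the 545 macrophage-group cells (2.20%; 4.59 CPM, 2.84 to 7.01) and 0 in dendritic-like and T, NK or innate lymphoid-like cells. C1q-high cells held 3 of these UMIs and C1q-low cells 18, levels of 2.98 and 5.04 CPM. The remaining 58 UMIs lay in 21 of the 205 TEC cells of cluster 14, an unnamed cluster led by Rhox5, Cald1 and Cav1, at 6.25 CPM (4.75 to 8.08). Arg1 UMIs outnumbered Nos2 UMIs 872 to 21 in the TEC macrophage groups. UMI totals are not corrected for how well each transcript is captured.

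Chil3 marked C1q-low cells and was nearly absent from C1q-high cells of the normal gland. NEC C1q-high cells held 1 UMI (3.37 CPM) and NEC C1q-low cells 146 UMIs (171 CPM, 145 to 202), a level 50.9-fold lower at high C1q (8.99 to 2023). In TEC the levels were 94.3 CPM (76.3 to 115.3) at high and 456 CPM (434 to 478) at low C1q, 4.83-fold lower at high C1q (3.93 to 6.01). The gates did not overlap within either library. The C1q-low cells of TEC were 2.66-fold above those of NEC (2.24 to 3.17), and Chil3 was found in 54.9% of the former (23.8% thinned to 1000 UMIs) and in 18.7% of the latter (10.3% thinned). At high C1q the ratio was 28.0 (4.90 to 1117) against a single NEC UMI. T, NK or innate lymphoid-like cells of TEC, which should lack the gene, held 105 CPM, with a UMI in 20% of cells (5.56% thinned) against 24.8% (5.31% thinned) of the TEC C1q-high cells, and median depths of 9841 and 7576 UMIs. Other TEC groups held less, with 23.8 CPM in dendritic-like cluster 13 and 5.82 CPM in cluster 14. The TEC C1q-high level thus did not stand above that of the lymphoid-like cells, and its ratio over NEC is given as a value only, while the TEC C1q-low level lay above theirs by CPM and by share. Macrophage markers summed to 5092 CPM in those TEC lymphoid-like cells and to 237 CPM in those of NEC, and their part in the Chil3 level was not tested.

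Within the C1q-low gate Chil3 depended on the cluster. In cluster 7 it reached 389.6 CPM for NEC and 791 CPM for TEC. That cluster held more UMIs of Ace and Treml4, genes known from patrolling monocytes, than any other macrophage or monocyte-like cluster. Chil3 is itself among its leading genes, with Gsr and Hp, so its high level there is a description of the cluster. TEC cells of the interferon response cluster 16 held 661 CPM and those of cluster 6 held 352.5 CPM. The 99 NEC cells of cluster 3 held 0 Chil3 UMIs. Cluster 7 was the 1 macrophage or monocyte-like cluster with many cells of both libraries (94 and 53 in the gate), and there the ratio of TEC over NEC was 2.03 (1.65 to 2.51). That value was within 2-fold with TMM-type scaling (1.90), without the richest cell (1.82), with Scrublet calls kept (1.49), at resolution 1.2 (1.56), without cells holding a Cd3 UMI (1.94) and with only NEC cells of at least 4000 UMIs (1.53). Neutrophil markers, a second known source of Chil3, summed to 121 and 92.7 CPM in the NEC and to 152 and 273 CPM in the TEC gates at high and low C1q, after cells with over 5000 CPM of S100a8 and S100a9 were set aside. Their part in the Chil3 levels was not tested. Chil4, a close paralog, is not among the genes used here, so reads shared with it may be missing from Chil3.

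Mrc1 was the C1q-high gene of the set in both libraries and was lower in the tumor cells of that gate. It stood at 354 CPM (289 to 428; 105 UMIs, 60 of 94 cells) in NEC C1q-high and at 70.4 CPM (53.7 to 90.7) in NEC C1q-low cells, a ratio of 5.02 (3.62 to 7.02). In TEC it stood at 148 CPM (125 to 174; 149 UMIs, 43 of 113 cells) and 59.7 CPM (51.9 to 68.2), a ratio of 2.48 (2.0 to 3.07). The richest of these 113 TEC cells held 27, 13, 12 and 11 of the 149 UMIs. The C1q-high groups of the libraries did not overlap, with TEC 2.39-fold below NEC (log2 -1.26, or -1.76 relative to the median over all genes), whereas the C1q-low groups did (ratio 0.847, 0.633 to 1.15). With only NEC cells of at least 4000 UMIs the C1q-high ratio was 0.508, just within 2-fold, against 0.418 over all cells. With cells thinned to 1000 UMIs, Mrc1 was found in 35.1% of NEC and 7.08% of TEC C1q-high cells. The NEC level was carried by cluster 8 at 415.6 CPM. Cluster 7 held 12.4 CPM in NEC and 12.1 CPM in TEC, a level like that of TEC T, NK or innate lymphoid-like cells (12.7 CPM).

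Il4ra, the receptor chain, was the least variable of the genes. It stood at 104 CPM (71.0 to 148) and 71.6 CPM (54.8 to 92.0) in NEC C1q-high and C1q-low cells and at 93.3 CPM (75.4 to 114) and 95.2 CPM (85.4 to 106) in TEC. All 4 intervals overlapped. The ratios of TEC over NEC were 0.893 (0.59 to 1.39) and 1.33 (1.01 to 1.78), and those of high over low C1q 1.46 (0.915 to 2.28) in NEC and 0.980 (0.771 to 1.23) in TEC. Relative to the median over all genes Il4ra stood at log2 -0.66 at high and 0.05 at low C1q. Other cells held it as well. In NEC, T, NK or innate lymphoid-like cells held 139 CPM, fibroblast-like cells 108.7 CPM and B or plasma-like cells 108.2 CPM. The T, NK or innate lymphoid-like cells of TEC held less, at 65.3 CPM. By cluster, T or NK-like cluster 2 of NEC held 167.4 CPM and cluster 9 of TEC 53.2 CPM. Cluster 14 (13.8 CPM) and the NEC epithelial-like cells (6.36 CPM, 1 UMI) lay lowest.

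Read against all genes, 3 of the 4 genes with enough UMIs were past 2-fold at high C1q (Arg1 higher, Mrc1 lower, and Chil3 higher over a single NEC UMI and at the level of TEC lymphoid-like cells), where 43.4% of 2839 genes were. At low C1q 2 of 4 were (Arg1 and Chil3 higher), beside 29.8% of 5650 genes. Between the gates 3 of 4 were past 2-fold in each library (Mrc1 higher, Arg1 and Chil3 lower at high C1q), beside 4.55% of 5805 genes in TEC and 20% of 2207 in NEC. The Arg1 call among these was lost in TEC at both other C1q limits or without 1 cell, and reversed in NEC without 7 cells. In cluster 7 it was 1 of 2 (Chil3, higher in TEC), beside 18.4% of 1677 genes, of which 12.3% were higher and 6.08% lower. There 2 of 8 genes of arginine use were higher (Smox and Arg2) and 0 lower, and 2 of 7 genes of alternative activation were higher (Chil3 and Il1rn) and 1 lower (Tgm2). These comparisons share cells with each other, so their values are not independent.

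Dendritic-like cells carried the receptor but little else of the set. Il4ra stood at 84.9 CPM in 39 NEC cells and at 83.0 CPM in 138 TEC cells, a ratio of 0.977 (0.59 to 1.71), so that 0 of 1 gene was past 2-fold beside 27.9% of 3045 genes (23.5% higher and 4.4% lower in TEC). Arg1 had 2 UMIs in each library (9.43 and 1.55 CPM). Chil3 had 0 UMIs in NEC and 41 in TEC (31.8 CPM, in 16 of 138 cells, 2.17% thinned), below the 105 CPM of TEC T, NK or innate lymphoid-like cells. Mrc1 stood at 9.43 CPM (2 UMIs) in NEC and 15.5 CPM (20 UMIs, 14 cells) in TEC, and 4 TEC cells held UMIs of both Chil3 and Mrc1. Of 13 other genes of arginine use compared there, 4 were higher in TEC and 1 lower, shares near those of all genes. They were Smox (4.03-fold), Ass1 (3.04-fold), Sat1 (2.36-fold) and the arginine methyltransferase gene Prmt1 (4.17-fold), with Oat, for ornithine aminotransferase, 2.37-fold lower.

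The alternative activation list, which includes Arg1, Chil3, Mrc1 and Il4ra, did not move as a block between the libraries. At high C1q, of 13 compared from a list of 32, 5 were higher in TEC and 7 lower, beside 33.6% and 9.76% of all genes, with a median log2 ratio of -1.26 against 0.50. The 5 included Arg1 and Chil3, the latter over a single NEC UMI, and the 7 included Mrc1. The lectin genes Mgl2 and Clec10a were 28.9-fold (19.1 to 45.7) and 5.46-fold lower in TEC, from 717.5 to 24.8 CPM and from 125 to 22.8 CPM, and the chemokine gene Ccl24 was 12.3-fold lower (9.81 to 15.6). A single TEC cell contributed 60% of the TEC Mgl2 UMIs. Retnla, for the resistin-like protein Fizz1, stood at 42557 CPM in NEC C1q-high and 11465 CPM in NEC C1q-low cells and was listed at 0 for the whole TEC library. At low C1q, 8 of 22 were higher, Arg1 and Chil3 among them, and 5 lower, beside 24.1% and 5.73% of all genes (median 0.48 against 0.36). Cish, a feedback inhibitor of cytokine receptors, was 3.29-fold higher (1.68 to 7.36), Matk, a tyrosine kinase gene, 3.28-fold higher, and the chemokine gene Ccl17 8.28-fold lower (6.30 to 11), although 90.6% of its NEC UMIs lay in 1 cell. The list thus held genes on both sides in each gate, with Arg1, Il1rn and Trem2 on the tumor side and Mrc1, Mgl2, Clec10a and Ccl24 on the normal side at high C1q. The list was drawn up with results of these data known, so its directions are not independent evidence.

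**Figure D3:**
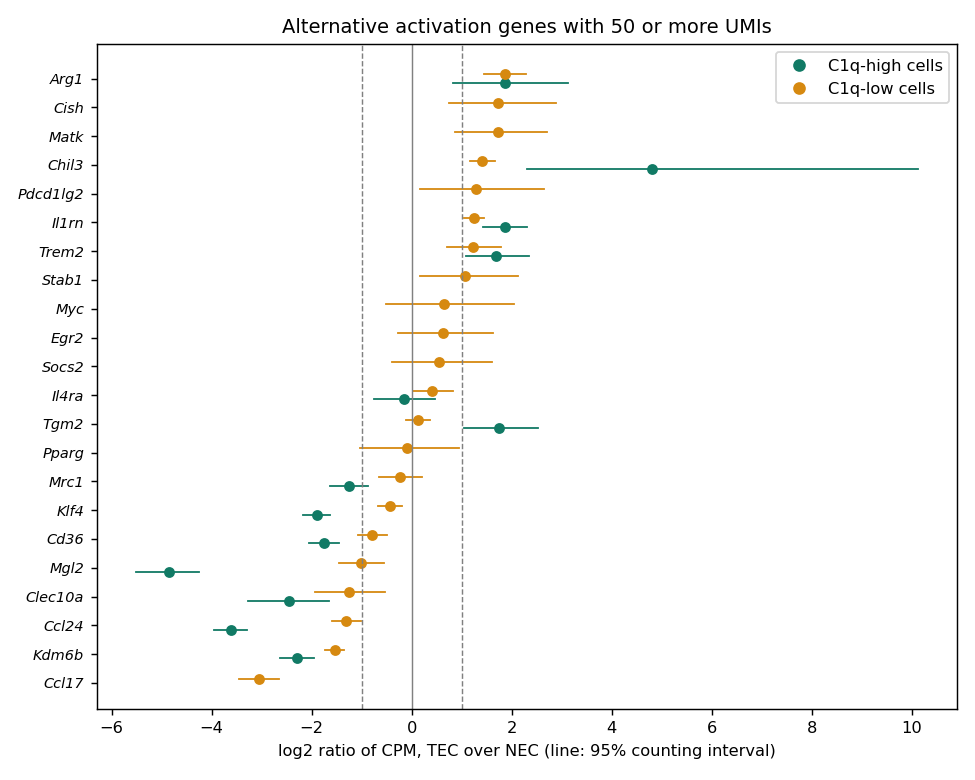
Log2 ratio of CPM (TEC over NEC; lines, 95% counting intervals; dashed lines, 2-fold) of the alternative activation genes with 50 or more UMIs, in C1q-high (green) and C1q-low (orange) cells. Mgl2 and Ccl24 lie far to the left at high C1q, and Arg1, Chil3, Il1rn and Trem2 lie to the right in both gates.

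Within a library the list also split by C1q level. In NEC 8 of 15 genes were higher at high C1q and 4 lower, beside 9.2% and 10.8% of all genes: Mgl2 was 9.40-fold and Ccl24 6.20-fold higher, and Ccl17 had 160 UMIs at low C1q and 0 at high. In TEC 3 of 22 were higher and 4 lower, beside 2.0% and 2.55% of all genes. The lipid-linked genes Pparg and Trem2 were 3.02-fold (1.93 to 4.70) and 2.98-fold (2.52 to 3.51) higher at high C1q there, with Mrc1, and Ccl17 was 11.4-fold lower (2 against 81 UMIs), with Chil3 and Cish.

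Genes of arginine use were mostly higher in TEC or within 2-fold. At high C1q 5 of 10 were higher and 0 lower, beside 33.6% and 9.76% of all genes, and at low C1q 7 of 23 were higher and 2 lower, beside 24.1% and 5.73% (medians 0.85 and 0.45). The low C1q count was thus near that of all genes. Smox, for spermine oxidase, stood at 23.6 CPM in NEC and at 217 CPM in TEC at high C1q, a ratio of 9.22 (4.4 to 23.2), and was 3.36-fold higher at low C1q. Ass1, for the enzyme that rebuilds arginine from citrulline, was 3.49-fold (1.93 to 6.91) and 6.12-fold (4.32 to 8.95) higher. In NEC C1q-high cells all 12 Ass1 UMIs lay in 1 cell. Sat1, a polyamine acetyltransferase gene, was 3.19-fold higher at high C1q, and Gatm, which takes arginine into creatine synthesis, was 5.42-fold lower at low C1q (3.39 to 8.75). Between the TEC gates, 2 of 24 were higher at high C1q (Gatm 3.44-fold, Paox 2.40-fold) and 2 lower, Arg1 and the mitochondrial arginase gene Arg2, which had the same fold (2.20; 1.58 to 3.12), beside 2.0% and 2.55% of all genes. In NEC 3 of 9 were lower at high C1q (Smox, Gatm, Arg1) and 0 higher, beside 10.8% and 9.2%.

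Of the IL-4 and IL-13 receptor pathway, some partners of Il4ra had ratios farther from 1 than Il4ra itself. Il13ra1, the other chain of the IL-13 receptor, was 3.76-fold (1.38 to 14.3) and 5.07-fold (2.91 to 9.64) higher in TEC at high and low C1q, and the feedback genes Socs1 and Ptpn6 were 3.24-fold and 8.64-fold higher at high and 11.5-fold and 3.08-fold higher at low C1q. Jak1, the kinase bound to Il4ra, was 2.86-fold lower at high C1q (2.02 to 4.04). In all 4 of 8 genes were higher and 2 lower at high C1q, beside 33.6% and 9.76% of all genes. At low C1q 3 of 10 were higher, near the 24.1% of all genes, and 1 lower (Irs2, an adaptor of the receptor, 2.39-fold), beside 5.73%.

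Genes of classical activation and of hypoxia were higher in TEC in larger shares than all genes. Of the classical list 9 of 18 were higher at high C1q, beside 33.6%, and 14 of 21 at low C1q, beside 24.1%, with 1 lower in each (Tnf 3.51-fold and Il6 2.15-fold). Il1b was 80.0-fold (40.5 to 185) and 11-fold (9.63 to 12.5) higher, and the chemokine genes Ccl5 and Cxcl10 were 31.6-fold and 5.42-fold higher at high C1q and 5.23-fold and 7.12-fold higher at low C1q, where Cxcl9 was 6.68-fold higher. Of the hypoxia list 6 of 10 were higher at high and 9 of 13 at low C1q, with 0 lower (medians 1.57 and 1.40). Bnip3 was 10.3-fold (2.75 to 86.8; 2 NEC UMIs) and 26.0-fold (10.1 to 95.9; 4 NEC UMIs) higher, Mif, for a macrophage cytokine, 8.98-fold and 4.33-fold, and Ero1l 4.79-fold and 4.14-fold. Ldha, for lactate dehydrogenase, was 4.03-fold higher at high C1q, and Egln3 5.11-fold higher at low C1q (2.12 to 16). The same direction was seen outside these gates and in 1 cluster. In dendritic-like cells 4 of 6 hypoxia and 7 of 16 classical genes were higher in TEC, beside 23.5% of all genes. In cluster 7 these were 3 of 7 and 4 of 11, beside 12.3%. In both, 0 genes of either list were lower. The classical list thus lay mostly on the tumor side or within 2-fold in both gates. The alternative activation list held genes on both sides in each gate.

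In TEC macrophages, cells with and without Arg1 held Chil3, Mrc1 and Il4ra in like shares. In the TEC macrophage groups Chil3 was found in 34 of 70 cells with Arg1 (48.6%, 36.4 to 60.8) and in 48.6% of the 475 cells without it. Mrc1 was found in 20 of the 70 (28.6%, 18.4 to 40.6) against 24.2%, Il4ra in 39 (55.7%) against 48.4%, and Nos2 in 3 (4.29%) against 1.89%. None of these pairs separated beyond its interval, and with cells thinned to 5000 UMIs the shares were 45.8% against 39.7% for Chil3 and 20.3% against 18.9% for Mrc1. By CPM, 0 of the 3 other genes compared were past 2-fold between cells with and without Arg1, where 6.86% of 5804 genes were. Chil3 was lower with Arg1, at 279 against 391 CPM (ratio 0.713, 0.606 to 0.834). Inside cluster 6 that ratio was 1.02 (0.856 to 1.21), with Chil3 in 50% against 42.3% of cells. The cells with Arg1 were not alike in Chil3. Its median per cell was 152.5 CPM in the 33 cells with 5 or more Arg1 UMIs. That median was 0 CPM in the 37 cells with 1 to 4 and in the 475 with 0. These classes were chosen after the values had been seen. Chil3 and Mrc1, which followed the C1q level in opposite directions, shared fewer cells. Mrc1 was found in 53 of 265 cells with Chil3 (20%, 15.4 to 25.3) against 29.3% (24.0 to 35) of cells without it, in 15.9% against 21.2% at 5000 UMIs, and in 0 of 109 (interval up to 3.33%) against 6.19% at 1000 UMIs. The first pair of intervals overlapped at their ends. In NEC 2 of 39 cells with Chil3 held Mrc1 (5.13%) against 36.8% of those without, and 6 of the 7 NEC C1q-low cells with Arg1 held Chil3 against 16.3% of the others.

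By count, cells with Arg1 differed from other TEC macrophages in hypoxia genes rather than in other genes of arginine use. The 70 cells with and 475 without an Arg1 UMI had like depths, with medians of 7748.5 and 7479 UMIs. Of 13 hypoxia genes, 4 were higher with Arg1 and 0 lower, beside 1.55% and 5.31% of all genes, with a median log2 ratio of 0.83 against -0.08. Egln3, a HIF-induced prolyl hydroxylase gene, stood at 114 against 14.4 CPM, a ratio of 7.90 (5.50 to 11.4), and was found in 28.6% against 6.74% of cells. Ero1l, an oxidoreductase gene of the endoplasmic reticulum, was 2.94-fold higher (2.38 to 3.62), the mitophagy gene Bnip3 2.65-fold (2.17 to 3.21; 67.1% against 39.4% of cells) and the lipid droplet gene Hilpda 2.07-fold (1.91 to 2.25; 95.7% against 73.3% of cells). All 13 hypoxia genes were found in a larger share of cells with Arg1, unthinned and at 5000 UMIs. Of 21 alternative activation genes 2 were higher, the scavenger receptor gene Cd36 (2.51-fold, 2.06 to 3.04) and Ccl24 (6.80-fold, with 62.7% of its UMIs in 1 cell), and 0 lower, with a median of 0.44. Of 23 arginine use genes 0 were higher and 1 lower, the arginine transporter gene Slc7a1 (3 against 59 UMIs, 3.10-fold, 1.01 to 15.5), and the median was -0.002. Within 2-fold, Arg2 (ratio 1.67, 1.28 to 2.16) and Smox (1.22, 1.07 to 1.40) were higher with Arg1. Sat1 (0.838, 0.762 to 0.921) and Oaz1 (0.915, 0.841 to 0.993) were lower. Of classical activation genes 2 of 22 were lower, Cxcl10 (5.23-fold, 3.84 to 7.33) and Cd38.

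Cluster 6 held 66 of the 70 Arg1 cells, so the comparison was repeated inside it against its 331 other cells. Of the 13 hypoxia genes, 3 were past 2-fold (Egln3 7.73, Ero1l 2.68, Bnip3 2.35), beside 1.27% of 5119 genes higher and 5.51% in either direction, and Cd36 (2.43) and Ccl24 (5.31) were again higher. Pparg and the polyamine gene Amd1 were lower there, and Cxcl10 was not (ratio 0.849). Over all TEC macrophage cells the summed hypoxia list stood at 5253 CPM in cells with 0 Arg1 UMIs, at 6965 CPM in the 37 cells with 1 to 4 and at 8953 CPM in the 33 cells with 5 or more. Spp1, for osteopontin, followed the same order at 1098, 2348 and 3045 CPM, while the arginine use list without Arg1 stayed at 4062, 3966 and 4063 CPM. These classes were chosen after the values had been seen. Chil3 had no such order, at 391, 156 and 431 CPM.

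**Figure D4:**
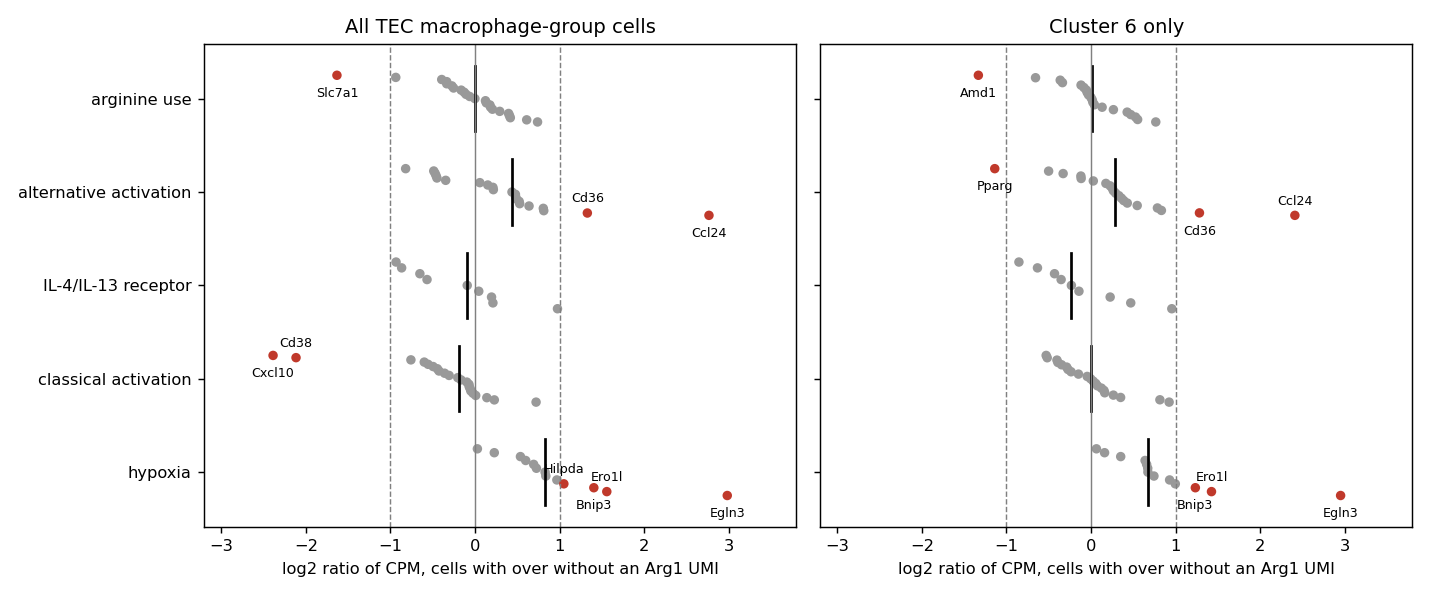
Log2 ratio of CPM between TEC macrophage-group cells with and without an Arg1 UMI, 1 point per gene by list, over all 545 cells (left) and in cluster 6 only (right); black bars are list medians, dashed lines 2-fold, and genes past it are red and named. The hypoxia list lies to the right in both panels, and the arginine use list is centered on 0.

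Across 20 groups of cells by library and cluster, the genes whose log2(CPM + 5) was most like that of each gene were found among 7255 genes, by Pearson's r, as a description of groups that share 2 libraries and their depths. Arg1 was most like Egln3 (0.593), Ero1l (0.576), Ube2q2, Plk3 and Zfand2b, all weak. Chil3 was most like Trem3 (0.980), Ly6i, Csf3r, F10 and Sirpb1c, and Mrc1 most like Tbxas1 (0.945), Adgre1, C3ar1, Cfp and Slamf8. Il4ra was most like Stk17b (0.837), Tmem243, Gna13, Prkx and Pim1. Nos2 was most like Raet1d (0.930), 1700012B09Rik, Raet1e, Hyal2 and Rars, although its highest level in any of these groups was 6.25 CPM. Among the genes themselves r was low: 0.280 for Arg1 and Chil3, 0.246 for Arg1 and Mrc1, -0.120 for Arg1 and Il4ra and 0.381 for Chil3 and Mrc1.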

How the data were processed

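The authors deposited UMI counts per gene and cell, not normalized. Per the submitters' processing notes, the tools were Cell Ranger 2.0.2, STAR 2.5.1b and Seurat and the build was mm10, with the settings used for each not given in the sources used here. Cells named "control" were taken as NEC, a match that rests on the word alone, and cells named "tumor" as TEC. The table held 5228289 UMIs in 1806 NEC cells and 16444540 UMIs in 1000 TEC cells, and 2 cell barcodes occurred in both. Counts were found in at least 5 cells of a library for every listed gene of TEC and for all but 15 of NEC, and other genes are listed at 0.

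A cell was kept with 500 or more genes, 1000 or more UMIs and no more than 10% mitochondrial UMIs, which left out 5 NEC cells. Scrublet removed 7 NEC and 3 TEC cells; cells with a Cd3 UMI remained in the macrophage gates (3 and 8 in NEC, 9 and 40 in TEC). Clustering used 1997 variable genes (2000 less those among the 5 genes), 30 principal components, 15 neighbors and the Leiden method at 0.8, and gave 17 clusters (scanpy 1.11.5, anndata 0.12.19, igraph 0.11.9, scikit-learn 1.9.0, Python 3.11.15). A cluster was named from at least 3 markers, each at 20 CPM or more, in 10% of its cells and 2-fold above other cells with 5 CPM added. The marker minimum, the C1q limit of 1000 CPM and the limit of 5000 CPM of S100a8 and S100a9 were set after the data had been seen. The genes, markers and lists were chosen with earlier results of these data known.

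UMIs were summed over the cells of a group and scaled to CPM, with exact Poisson intervals. Ratios have exact Clopper-Pearson intervals conditional on the total, and shares exact binomial ones (scipy 1.17.1, numpy 2.4.6, pandas 2.3.3; figures with matplotlib 3.10.9). A group sum of 0 was set to 3 counts in ratios, and genes listed at 0 for a whole library entered no comparison between libraries. Besides the 5 genes, list genes were named from the 4 of each list with the largest absolute log2 ratio among those with 50 or more UMIs in a comparison, not all of which are given, and for likeness 5 genes of 200 or more UMIs; other genes named were chosen after their values had been seen. On simulated counts the calling rule recovered 192 of 195 genes changed 3-fold among 2720 at the depths of the C1q-high comparison, and 189 of 192 among 5639 at those of the C1q-low comparison, and called 29 and 60 unchanged genes. The changed genes were drawn only from those expected well above the 50 UMI minimum, and the simulated sums were Poisson counts. The check thus does not cover genes near that minimum, nor genes whose UMIs lay in a few cells, such as Arg1. No p-value is given, since each group has 1 library and cells are not replicates.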

Additional observations from a re-analysis of the deposited data

Results flagged for a closer look

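Some signal of the 5 genes lay in TEC cells outside the macrophage and dendritic gates, above the level in the 1454 NEC cells outside those gates; the values come from single libraries and their source was not tested. Chil3 stood at 145 CPM (119 to 176; 106 UMIs in 16 of 67 cells) in TEC cluster 10, a T or NK-like cluster, against 0 UMIs in the NEC cells, and 24.5% of its UMIs lay in 1 cell. Mrc1 stood at 17.8 CPM (9.50 to 30.5; 13 UMIs in 6 cells) in the same cluster against 0.786 CPM in NEC. Macrophage markers summed to 6927 CPM in that cluster, and their part in these values was not tested. In cluster 14, Nos2 stood at 6.25 CPM (58 UMIs in 21 of 205 cells), while it is listed at 0 for NEC, and Chil3 stood at 5.82 CPM (54 UMIs in 45 of 205 cells) against 0 UMIs in NEC. The median depth of cluster 14 cells was 37749 UMIs, and thinned to 1000 UMIs none held Nos2 and 0.488% held Chil3.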

How the results depend on the processing

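No paired analysis was possible because each group has 1 library and no replicate number is shared. Of 206 alternative values of 19 member ratios, 1 reversed and 13 moved outside the counting interval. Reversed: the NEC Arg1 ratio of C1q-high over C1q-low was 3.66 without the 7 NEC cells of cluster 6, an alternative chosen after the data were seen. Moved: the C1q-low Arg1 ratio to 5.29 with gates from per-cell marker sums and 29.4 without those 7 cells; the C1q-low Mrc1 ratio to 0.609 with TEC clusters 6 and 16 against NEC cluster 3 (added later); the TEC Arg1 ratio of high over low C1q to 0.648 with the C1q limit at 500 CPM and 0.966 without the 5 richest cells, and 0.343 and 0.103 without the richest cell or the 5 richest cells of each gate (the last 3 added later); the TEC Chil3 ratio to 0.286 with that limit and 0.157 at 2000 CPM; and the cluster 7 Chil3 ratio to 2.60 (mean of per-cell CPM), 1.49 (Scrublet calls kept), 1.56 (resolution 1.2) and 1.53 (NEC cells of at least 4000 UMIs).

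Counts of listed genes past the limit depended on where it was set. With no UMI minimum, arginine use genes past 2-fold numbered 16 at high C1q (11 at 20 UMIs), 14 at low C1q and 9 between the TEC gates, and alternative activation genes 19 at high C1q. Past 1.5-fold, arginine use genes numbered 17 at low C1q and 7 between the TEC gates, and 10 hypoxia genes separated cells with Arg1. Past 3-fold these were 4, 1 and 1, and alternative activation genes 4 at low C1q and 3 between the TEC gates. Shares rose with depth: unthinned, 12.8% of TEC macrophage-group cells held Arg1, 48.6% Chil3 and 24.8% Mrc1, and 32.7% of NEC cells Mrc1; at 2000 UMIs the last 3 were 28.3%, 12.8% and 22.0%. Of TEC Arg1 cells, 48.6% held Chil3 unthinned and 45.8% at 5000 UMIs, and 28.6% and 20.3% held Mrc1; of Chil3 cells, 20% and 15.9% held Mrc1. The cause of these shifts was not tested. Per-cell marker gates and other C1q limits were not run for dendritic-like cells or cluster 7, to which they do not apply. The median TEC cell held 8594 UMIs and the median NEC cell 2259, so low shares in NEC are the less certain ones, and levels near 5 CPM rest on a few UMIs.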
